A study of Drosophila melanogaster with 16 samples.

Results

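Many genes of the fruit fly start transcription at more than 1 place, and in some the starts lie many kilobases apart. Of 15182 annotated genes with read counts in the files, 640 had outermost annotated starts at least 5 kb apart and at least 50 input reads at both of those starts in every driver line. These 640 genes, and the division of histone marks between their most upstream and most downstream promoter, are described here. Positions and read counts at the annotated starts chose the genes, and no histone mark was used. Another 9 genes were far enough apart but had too few input reads, among them ey (lowest input count 40) and Hk (46). At the edges of the rule, bbx and chb lay just inside with starts 5008 bp apart, and CG10107 and CG14207 lay just outside at 4981 and 4980 bp.

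The study profiled chromatin in neurons of adult Drosophila melanogaster heads by chromatin immunoprecipitation and sequencing. GAL4 driver lines expressed unc84-GFP, a GFP-tagged protein of the nuclear envelope, and the tagged nuclei were captured. Mature neurons of every kind carry the tag with R57C10. With OK107 the tagged cells are primarily the Kenyon cells that make up the mushroom body, a centre of olfactory learning, and with Tdc2 they are primarily neurons that release octopamine. The word "primarily" in the labels means that other cells carried the tag in the OK107 and Tdc2 lines, and all groups carried the same tag. For each of H3K4me3 and H3K27ac there were 2 libraries from R57C10, 1 from OK107 and 1 from Tdc2. The date tags of the R57C10 columns order them, and the names early and late follow that order. H3K27me3 had 2, 1 and 2 libraries in the same order of lines, and each line had 1 input library of chromatin that was not immunoprecipitated. The OK107 and Tdc2 libraries of the 2 active marks shared a date tag that no R57C10 library of those marks had, so driver line and date tag cannot be told apart in any comparison with R57C10.

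H3K4me3 is placed around the starts of genes whose promoters are in use, and H3K27ac lies at active promoters and enhancers. H3K27me3 is the mark of Polycomb repression. A gene with distant promoters can make messages with different first exons, and often proteins with different N-termini, and neuronal genes are known for such alternative starts. A promoter that is marked in a small group of neurons adds little to chromatin from all neurons, which is why sorted cell types are compared with the whole.

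The values below come from counts of reads in a window that reaches 500 bp to either side of an annotated start. The upstream share is the percentage of a gene's reads, summed over its 2 outermost windows, that fell in the upstream window. The log2 ratio is the log2 of the upstream count over the downstream count, with 0.5 added to each. Because both windows of a gene come from the same library, sequencing depth cancels from the share. Over all promoter windows the H3K4me3 libraries held 7.42 M reads in Tdc2, 17.3 M and 56.95 M in R57C10 early and late, and 50.9 M in OK107. The H3K27ac libraries held 10.1 M to 22.03 M and the inputs 9.17 M to 10.5 M.

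Markers of the named cells were mostly, but not all, higher in their own line. Vmat, the vesicular monoamine transporter used by octopaminergic neurons, had a log2 ratio of H3K4me3 over input of 0.76 in Tdc2, against -2.13 and -3.66 in R57C10 and -3.01 in OK107. A list of 8 Kenyon cell markers had a median of 0.82 in OK107 against -0.02 and -0.31 in R57C10 and 0.16 in Tdc2. Of these 8, ey, toy, dac, Mef2 and Imp were higher in OK107 than in both R57C10 libraries, rut lay between them, dnc and Pka-C1 were lower, and Imp was highest in Tdc2 (0.12 against -1.07 in OK107). Tbh, which makes octopamine, had more H3K4me3 in Tdc2 (0.34) than in R57C10 (-0.10 and -0.51) but less H3K27ac (0.10 against 0.63 and 0.43). All 5 glial markers were below input in every H3K4me3 library, with medians of -2.48 and -3.56 in R57C10, -1.97 in OK107 and -0.80 in Tdc2. All 6 muscle markers were likewise below input, with medians from -4.21 to -1.41, and in both lists the Tdc2 library was nearest to input. In H3K27ac the glial marker nrv2 was above input in every library (0.61 to 0.91), and Gs2 (0.28) and moody (0.05) were so in Tdc2. The other glial values and all muscle values of H3K27ac were below input. Of 8 photoreceptor markers, Rh4 (1.00 to 1.795) and norpA (0.95 to 1.34) were above input in every H3K4me3 library and the rest below. The part of other cells in the results below was not tested.

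The 640 genes spanned a wide range of architectures. The median distance between outermost starts was 14271 bp, the longest was 388255 bp in kirre, an adhesion protein of the immunoglobulin superfamily, and 66 genes spanned 50 kb or more. There were 251 genes with 2 distinct starts, 160 with 3 and 229 with 4 or more. The largest number was 15 in cpx, which encodes complexin, the clamp on synaptic vesicle fusion. The genes lay on the large chromosome arms apart from 6 on chromosome 4 and 3 in heterochromatic scaffolds, with 317 on the plus strand and 323 on the minus strand. In 182 genes the upstream window overlapped the start window of another gene, and in 45 the downstream window did. Such windows are called shared below, though the other start may lie outside them. Reads in the overlap cannot be assigned to either gene.

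H3K4me3 was higher at the upstream promoter. The median log2 ratio was 0.85 and 1.23 in R57C10 early and late, 0.96 in OK107 and 0.34 in Tdc2, so that in the middle gene 64.4, 70.1, 66.0 and 56.0% of the reads were upstream. At least 2-fold more reads lay upstream in 299, 338, 313 and 163 genes, and downstream in 72, 90, 92 and 50. The tilt was smaller, but upstream, in the 432 genes that shared neither window with another gene, where the medians were 0.56, 0.77, 0.72 and 0.16. It was larger in the 182 genes whose upstream window overlapped that of another gene, with medians of 1.90, 2.99, 1.99 and 0.92.

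H3K27ac did not share that tilt in counts. Its median log2 ratio was -0.07 and -0.10 in R57C10, -0.34 in OK107 and -0.22 in Tdc2. The inputs themselves were tilted the other way: upstream windows held fewer input reads in 453, 449 and 453 of 640 genes, with medians of -0.37 in R57C10, -0.52 in OK107 and -0.35 in Tdc2. Relative to input, the H3K27ac medians became 0.33, 0.27, 0.19 and 0.05, and those of H3K4me3 became 1.08, 1.295, 1.33 and 0.63. Thus the medians of both marks lay upstream relative to input in every library, H3K27ac by the smaller amount. In Tdc2 the H3K27ac lean was slight, with 294 of 640 genes on the downstream side. These values include the genes with shared windows.

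**Figure D1:**
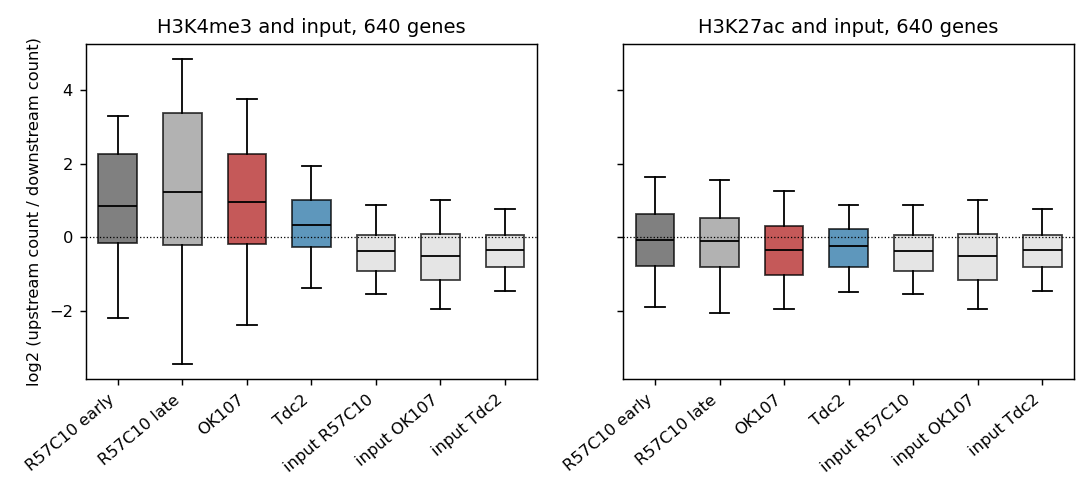
Log2 of upstream over downstream reads (y axis, no unit) for 640 genes in each library of H3K4me3 (left) and H3K27ac (right), with the 3 inputs in both panels; the x axis names the libraries. The H3K4me3 distributions sit above 0, with medians from 0.34 in Tdc2 to 1.23 in R57C10 late, and the inputs sit below 0.

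The libraries differed in how far they spread the genes apart. The median size of the H3K4me3 log2 ratio was 1.29 in R57C10 early, 2.05 in R57C10 late, 1.41 in OK107 and 0.67 in Tdc2. Against the mean of R57C10, the slope of the ratio across the 640 genes was 0.80, 1.20, 0.86 and 0.42. The slopes of H3K27ac were 1.02, 0.98, 0.79 and 0.57. In a flatter library differences in share tend to follow the gene's ratio, with upstream-heavy genes lower and downstream-heavy genes higher. Single genes went the other way, such as unc-13 below, and the cause of the slopes was not tested. A second scaling, in which each library was brought to the same curve along promoter level by loess, moved the H3K4me3 slopes to 1.00, 1.00, 0.96 and 0.99. Both scalings are given below.

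The side on which H3K4me3 was higher was the same in all 4 libraries for 485 of 640 genes, upstream in 358 and downstream in 127. It was at least 2-fold in all 4 for 148 and 36 genes. The highest upstream share in R57C10 and OK107 was at CG42797, whose starts lie at 9502993 and 9512025 on chromosome X, with 96.3, 99.2, 98.4 and 91.2% in R57C10 early, R57C10 late, OK107 and Tdc2. Its upstream window is shared with Aats-lys, a lysyl-tRNA synthetase. In Tdc2 the highest was 95.5% at CG11093. The opposite end was held by CG33695, with 2.29, 0.51, 0.85 and 3.82%, and by Ptp61F, a tyrosine phosphatase, with 1.73, 0.54, 1.84 and 4.95%. CG33695 shares its upstream window with cmet. No library crossed to the other side in these genes, and Tdc2 lay nearest to 50% in CG42797, CG33695 and Ptp61F. These genes were chosen after their values were seen.

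For H3K27ac the side agreed in all 4 libraries for 431 genes, but with the downstream side leading. There were 164 genes upstream and 267 downstream, and 15 and 64 were at least 2-fold in every library. No gene had H3K27ac at least 2-fold on opposite sides in different libraries. H3K4me3 had a single such gene, Ptp99A, a receptor tyrosine phosphatase of growing axons.

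The marks lay on the same side in all libraries in more genes once input was taken into account. By counts, both marks were upstream in all libraries in 125 genes and both downstream in 81. In 117 genes H3K4me3 was upstream and H3K27ac downstream, and the reverse held in 12. The 117 genes had stronger input tilts than the rest, with medians of -0.91, -1.21 and -0.84 in the 3 inputs. Relative to input, 222 genes had both marks upstream, 75 both downstream, 47 had H3K4me3 upstream with H3K27ac downstream, and 14 the reverse. Of the 117, 37 then had both marks upstream and 23 kept opposite sides. Pearson's r between the log2 ratios of the marks across 640 genes was 0.49, 0.46, 0.32 and 0.39 by counts and 0.70, 0.72, 0.64 and 0.55 relative to input. These correlations are across genes, which are not independent replicates, and the ratios relative to input share the input library of the line.

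Genes with a strong agreement came from several kinds of protein. Both marks were at least 2-fold higher upstream in every library in 7 genes, CG42797, CG9766, CoRest, Mctp, Patronin, cp309 and unc-13. CoRest is a corepressor that works with histone demethylases, Patronin binds microtubule minus ends, and unc-13 primes synaptic vesicles. Shared upstream windows are found in CG42797, Mctp (with CG42351), Patronin (with eIF3-S9) and cp309 (with Aats-gly and CG6945). Their upstream reads may thus belong in part to the other gene. At unc-13 on chromosome 4, the upstream share of H3K4me3 was 68.2, 69.4, 75.6 and 76.0%, and that of H3K27ac was 78.0, 74.4, 82.7 and 76.4%. Its downstream input count in OK107 was 58, near the floor of the rule. Both marks were at least 2-fold higher downstream in 12 genes, among them the cytoskeletal genes Tm1 (tropomyosin) and tacc, the clathrin uncoating factor aux, and pros, a homeodomain regulator of neuronal fate. Aux shares its downstream window with CG31516. In Tm1 the upstream share of H3K4me3 was 7.51 and 3.17% in R57C10, 6.81% in OK107 and 26.8% in Tdc2, and that of H3K27ac was 9.01, 11.3, 16.8 and 21.03%. The Tdc2 library was the highest for both marks and every library stayed on the downstream side. By counts, opposite sides at 2-fold in every library occurred at 1 gene, CG8557, where H3K4me3 was 67.2 to 87.6% upstream and H3K27ac 27.3 to 32.7%. Relative to input, 3 genes had H3K4me3 at least 2-fold upstream and H3K27ac downstream by a smaller set margin, Ptpmeg, grp and rn. CG8557 was not among them, so its opposite sides at 2-fold were seen in counts only.

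**Figure D2:**
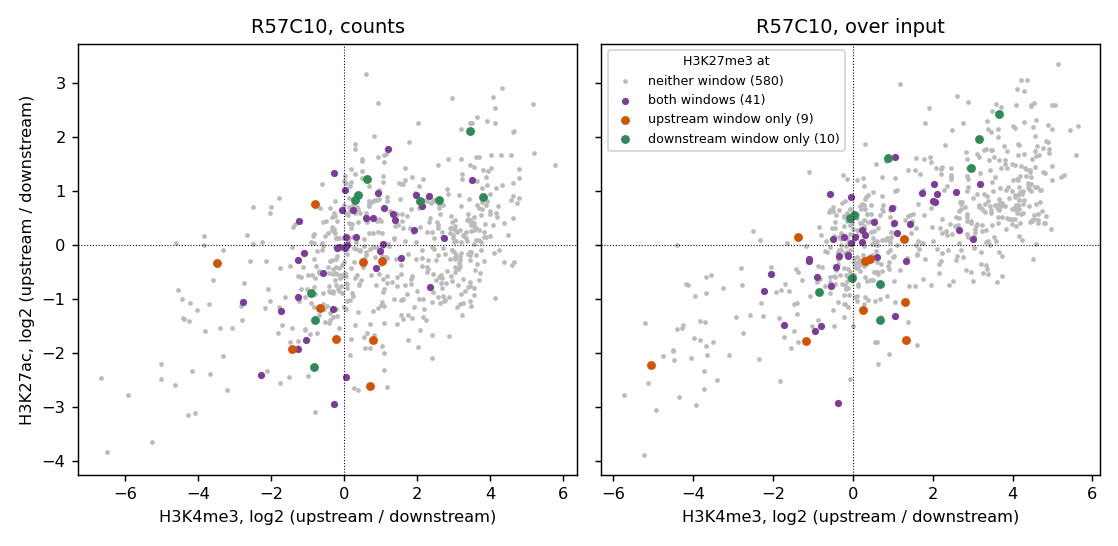
Log2 upstream over downstream of H3K4me3 (x axis) against H3K27ac (y axis) in R57C10, 640 genes, by counts (left) and relative to input (right); colours give where H3K27me3 was at least 2-fold over input in both R57C10 libraries. Pearson's r in the 2 R57C10 libraries was 0.49 and 0.46 by counts and 0.70 and 0.72 relative to input.

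At 2-fold over input few genes had both outermost promoters marked. A window was called marked where the mark was at least 2-fold over input, with 1 added to each on the CPM scale, which divides counts by library size, and in R57C10 in both libraries. By that rule H3K4me3 marked both promoters of 7 genes in R57C10, the upstream promoter alone in 157, the downstream alone in 27 and neither in 449. The counts were 5, 156, 30 and 449 in OK107 and 1, 63, 15 and 561 in Tdc2. At a threshold of equality with input, added after the data were seen, both promoters of 54, 48 and 45 genes were marked and neither in 306, 319 and 330. For H3K27ac both promoters were marked at 2-fold in 10, 15 and 2 genes in R57C10, OK107 and Tdc2, but at equality with input in 210, 249 and 268. The 191 genes with any promoter marked by H3K4me3 in R57C10 therefore depend on the threshold, but the upstream promoter alone was marked in more genes than the downstream one alone, at both thresholds, in all 3 lines and for both marks.

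Single switches between these classes were rare. In R57C10 pum, the translational repressor Pumilio, had H3K4me3 above the threshold at its upstream start alone, and in OK107 at its downstream start alone. The upstream window stood at log2 ratios over input of 1.28 and 1.01 in R57C10, 0.90 in OK107 and 0.36 in Tdc2. The downstream window stood at 0.50 and 0.42 in R57C10, 1.31 in OK107 and 0.87 in Tdc2. The upstream window was thus highest in R57C10 and the downstream window highest in OK107, by steps of less than 1 log2 unit between OK107 and the nearest R57C10 library. Sep4, a septin, went the other way between R57C10 and OK107, and CG9005 was upstream in R57C10 and OK107 and downstream in Tdc2.

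The share of H3K4me3 was compared between OK107 and R57C10 with edgeR's quasi-likelihood test over the 1365 genes whose outermost windows did not overlap. All 640 genes entered. After Benjamini-Hochberg adjustment 1 of them passed at 0.05, against 0.147% of all genes tested. At an unadjusted p under 0.05 there were 24, against 3.44% of all tested, DESeq2 called 0, and loess scaling called 0. With the input offset 1 gene passed, Pdfr at -2.05 (adjusted p = 0.0225), against 0.22% of all tested. The gene called on counts was CG17018, with starts at 22311931 and 22354355 on chromosome 2L. Its upstream share was 61.8 and 48.8% in R57C10, 25.6% in OK107 and 36.9% in Tdc2. OK107 lay below both R57C10 libraries, with a log2 difference of -1.85 ± 0.42 (SE) and an adjusted p of 0.00856 in edgeR. Both windows were depleted of H3K4me3 in every library, at log2 ratios over input between -4.27 and -1.37. The input moved in the same direction at these windows, with 472 upstream and 349 downstream reads in R57C10 against 384 and 715 in OK107, a log2 difference of -1.33. With the input as an offset the H3K4me3 difference was -0.52.

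Differences of at least 1 log2 unit that did not pass were seen in other genes. The upstream share was that much higher in OK107 in 16 genes and lower in 64, against 10.5% of all tested genes in either direction, and 21 and 29 with loess scaling. The median difference was -0.21 over the 640 genes and -0.18 over all genes tested. The largest were lower in ena, Ptp99A, mamo, CG10741 and numb, and higher in CG7991, grh, LpR2, esn and sn, each with an adjusted p in edgeR of at least 0.166. Ena is an actin polymerase of growth cones, and its upstream share was 89.9 and 94.98% in R57C10, 74.6% in OK107 and 76.1% in Tdc2. OK107 and Tdc2 lay close together, below both R57C10 libraries. With loess scaling the ena difference was -1.49 in OK107 and 0.35 in Tdc2, so its direction in Tdc2 depends on the scaling. The R57C10 libraries themselves differed from each other by at least 1 log2 unit in 259 genes.

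In Tdc2, 15 of the 640 genes passed for H3K4me3, against 1.61% of all tested genes. Of these, 5 had a higher upstream share (0.513% of all tested) and 10 a lower one (1.1%). At an unadjusted p under 0.05 there were 148, against 15.2%. DESeq2 called 165, against 18.9% of the genes to which it gave an adjusted p. Loess scaling called 3, the input offset 24 (against 2.64% of all tested), and none of the 15 was called with loess scaling. The median difference was -0.74 over the 640 genes and -0.49 over all tested, and 353 genes differed by at least 1, 67 higher and 286 lower, against 45.1% of all tested. With loess scaling the median was -0.03, and 70 genes differed by at least 1.

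Cngl encodes a cyclic nucleotide-gated channel. Its upstream share was 81.7 and 94.7% in R57C10, 87.8% in OK107 and 51.3% in Tdc2. Tdc2 lay apart from the other 3 libraries, with a log2 difference of -3.08 ± 0.78 (SE; adjusted p = 0.0228 in edgeR). Its loess-scaled value was -1.52, and its value with the input offset -3.55. Pdfr, the receptor of the clock neuropeptide PDF, had 67.1 and 81.1% in R57C10, 52.3% in OK107 and 46.6% in Tdc2. Both sorted lines lay below both R57C10 libraries, and the Tdc2 difference of -1.77 ± 0.51 passed with an adjusted p of 0.0435 in edgeR. The loess value for Pdfr was -1.26.

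CG10741 had the largest difference of all the called genes, -3.46 ± 1.00 (SE; adjusted p = 0.0435 in edgeR). Its upstream share fell from 95.1 and 98.5% in R57C10 to 76.7% in Tdc2, with 91.1% in OK107. Its upstream window is shared with CG10083. The other genes called lower were CG3961, CG5953, pbl (a RhoGEF of cytokinesis), Rapgap1 (an inactivator of the GTPase Rap1), CG4174, shakB (a gap junction innexin of the giant fibre system) and baz (the polarity protein Par-3), at -2.18 to -1.41. CG4174 shares its upstream window with tRNA:CR32200.

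The genes called higher in Tdc2 included the transcription factors kay and Eip78C and the splicing regulator heph. Kay is the fly Fos, Eip78C an ecdysone-induced nuclear receptor, and heph the polypyrimidine tract-binding protein. At heph the upstream share of H3K4me3 was 26.0 and 14.8% in R57C10, 35.0% in OK107 and 49.8% in Tdc2, and the difference was 2.00 ± 0.47 (SE; adjusted p = 0.0099 in edgeR). The OK107 and Tdc2 libraries both lay above R57C10. At kay the shares were 34.7 and 34.7% in R57C10, 51.995% in OK107 and 64.9% in Tdc2, a difference of 1.798 ± 0.52 (SE). When the strongest start on each side of the midpoint between the outermost starts replaced them, the kay difference was -0.22 and that of Rapgap1 0.82, against the direction at the outermost starts. CG7991 and ome rose by 2.34 and 2.23, and ome shares its upstream window with CG43121.

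The called genes were mostly weakly marked. A window reached its input level in at least 1 library in 4 of the 15, and 2-fold over input in 1, CG10741. Of all 640 genes, 369 and 262 did so. The shares of 11 of these genes therefore rest on reads at windows below input, such as heph, where the upstream window stood between -4.43 and -1.74. The upstream input share moved in the direction of the call in CG10741, pbl, Rapgap1, shakB, heph and ome, and against it in the other 9. Every one of the 15 differences kept its direction with the input offset, and 11 of the 15 kept an adjusted p at or under 0.05.

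**Figure D3:**
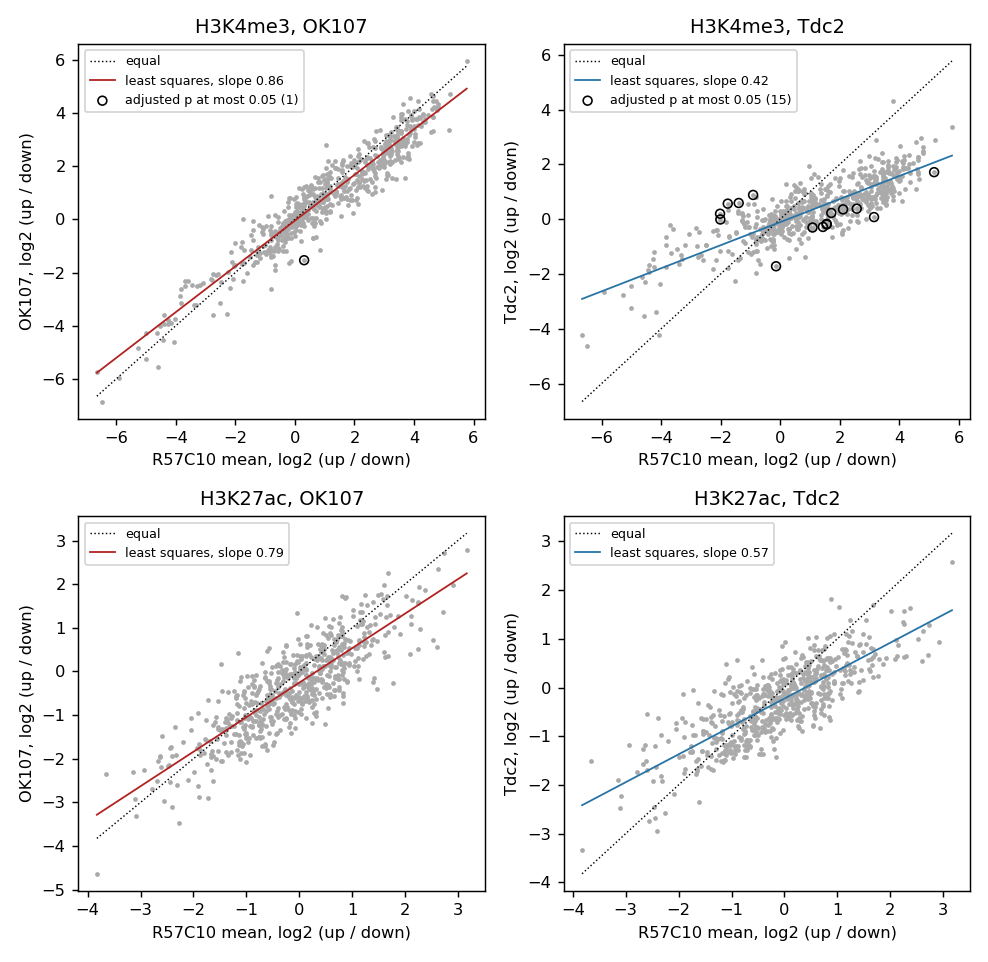
Log2 upstream over downstream in OK107 and Tdc2 (y axes) against the mean of the 2 R57C10 libraries (x axes) for H3K4me3 and H3K27ac, 640 genes; the dotted line marks equality and the coloured line is the least squares fit. The H3K4me3 slope was 0.86 in OK107 and 0.42 in Tdc2, and circles mark genes with an adjusted p of at most 0.05.

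With loess scaling, 3 genes had a lower upstream share of H3K4me3 in Tdc2, against 0.44% of all tested. They were cpx, Ptp99A and CG11455. At Ptp99A the upstream share was 59.3 and 68.4% in R57C10, 31.0% in OK107 and 27.8% in Tdc2. Both sorted lines fell below 50% and both R57C10 libraries lay above it. The loess-scaled difference was -2.47 (adjusted p = 0.0243 in edgeR) and that without it -2.21 (adjusted p = 0.0819). With the strongest start on each side of the midpoint the differences were -0.23 in OK107 and -0.21 in Tdc2, so the difference was not seen between those starts. Its H3K27ac share was 21.3 to 26.1% in all 4 libraries, with Tdc2 within the R57C10 range and OK107 just below it. The Ptp99A starts are 102433 bp apart on chromosome 3R. At cpx the share was 76.8 and 84.9% in R57C10, 59.6% in OK107 and 43.5% in Tdc2, with a loess-scaled difference of -2.23 (adjusted p = 0.0237 in edgeR). The H3K27ac share of cpx was 65.3, 62.4, 49.7 and 53.9% in the same order, so both marks lay lower in both sorted lines. With the strongest starts the cpx differences of H3K4me3 were -0.06 in OK107 and 0.11 in Tdc2. The downstream window of cpx also overlaps the start windows of CG9780 and mir-929. CG11455 moved by -2.46 with loess scaling and by -0.15 without it.

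For H3K27ac no gene passed in either line in the fit on counts, in which edgeR's quasi-likelihood test called 0 of all 1365 genes (0%). In OK107, 175 of the 640 had an unadjusted p under 0.05, 33 with a higher and 142 with a lower upstream share, against 26.3% of all tested. In Tdc2 there were 185, against 29.5%. The smallest adjusted p was 0.132 in OK107 and 0.0552 in Tdc2. DESeq2 called 9 and 30, against 1.32 and 4.91%. With loess scaling 31 genes passed in OK107, 3 higher and 28 lower, against 4.1% of all tested, and 41 in Tdc2, 6 higher and 35 lower, against 5.35%. A difference of at least 1 log2 unit was reached by 67 genes in OK107, 10 higher and 57 lower, against 10.3% of all tested. In Tdc2 it was reached by 90 genes, 31 higher and 59 lower, against 15.3%. The medians over the 640 genes were -0.25 in OK107 and -0.22 in Tdc2, against -0.25 and -0.23 over all tested.

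The OK107 shares of H3K27ac moved with the OK107 input. Among the 64 genes whose plain difference in log2 ratio was at least 1, the difference of the input ratios had the same direction in 64, and after subtraction of the input 8 remained at least 1. Of the 31 genes called with loess scaling, 30 had an input difference in the same direction. Across 640 genes the input difference and the H3K27ac difference had a Pearson's r of 0.60 and a Spearman's rho of 0.58, and for H3K4me3 r was 0.41 and rho 0.40. In Tdc2 the input did not move that way: r was -0.14 for H3K27ac and -0.28 for H3K4me3. The input had the direction of the mark in 36 of the 89 genes with a plain difference of at least 1, and 81 remained at least 1 after subtraction. Marks and inputs of a line are separate libraries, but R57C10 enters both differences of a correlation.

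The genes with the largest H3K27ac differences in OK107 were lower in CG10741, CG17018, Treh, orb2 and CG43073 and higher in Eip63F-1, D2R, sn, CG17600 and DCX-EMAP. At Treh, the trehalase that splits the blood sugar of insects, the upstream share was 78.2 and 68.4% in R57C10, 43.2% in OK107 and 52.5% in Tdc2. The sorted lines lay below both R57C10 libraries. The difference was -1.88 in OK107 (adjusted p = 0.132 in edgeR) and -1.003 with the input offset, since the input ratio differed by -0.88. Eip63F-1 encodes an EF-hand calcium-binding protein, and its share was 24.2 and 28.6% in R57C10, 53.0% in OK107 and 38.9% in Tdc2. OK107 was the highest library, and the upstream window is shared with Eip63F-2. At D2R, the dopamine D2-like receptor, the R57C10 libraries themselves lay apart at 19.8 and 44.8%, with 57.4% in OK107 and 47.5% in Tdc2. The input ratio at D2R differed by 1.04 in the same direction, and with the input offset the D2R difference went from 1.58 to 0.54 (adjusted p = 0.729 in edgeR).

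In Tdc2 the largest H3K27ac differences were lower in CG10741, Teh2, CG1902, CG8312 and CG43073 and higher in CG17600, CG4622, pdm2, Abd-B and LpR1. Teh2 encodes an auxiliary subunit of voltage-gated sodium channels, pdm2 a POU transcription factor, Abd-B a Hox factor of the posterior body, and LpR1 a lipophorin receptor. None passed on counts in edgeR. With the input offset 121 of the 640 genes passed in Tdc2, against 16.5% of all tested, and 0 in OK107. Among them were Teh2 at -2.04 ± 0.34, CG1902 at -2.12 ± 0.24, Abd-B at 2.01 ± 0.28 and CG4622 at 2.02 ± 0.24 (SE), each with an adjusted p of 0.0365 in edgeR. Teh2 shares its upstream window with tipE. CG1902 shares its upstream window with CG30338 and its downstream window with CG30339. The Tdc2 slope of 0.57 was computed on counts, and no slope was computed with the input offset. The part of a flatter library in these values was not tested.

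Changes of level at single promoters were tested with edgeR over all distinct windows, and 1277 windows of the 640 genes could be tested. For H3K4me3 edgeR called 0 of them in either line, against 0.00526 and 0% of all windows. At an unadjusted p under 0.05 there were 18 in OK107 and 128 in Tdc2. These were 1.41 and 10.0% of those tested, above the 0.563 and 4.75% of all windows. DESeq2 called 0 and 1, against 0.0368 and 0.143%. Loess scaling called 13 and 46, which were 1.02 and 3.6% of those tested, against 1.17 and 2.6%. For H3K27ac 175 windows of the 640 genes passed in OK107, 13.7% of those tested against 13.4% of all windows. Of these, 113 were higher (9.14% of all windows were) and 62 lower (4.28%). In Tdc2, 358 passed, 28.0% against 29.1%, 239 of them higher (20.5% of all windows) and 119 lower (8.64%). DESeq2 called 25 in OK107 and 172 in Tdc2, against 1.93 and 14.7% of all windows. For H3K27ac the promoters of the 640 genes were thus called about as often as all promoters. With loess scaling 172 were called in OK107 (12.1% of all windows) and 150 in Tdc2 (11.1%). Of these, 76 were higher and 96 lower in OK107 (5.89 and 6.25% of all windows) and 59 higher and 91 lower in Tdc2 (5.48 and 5.66%), so the direction of the majority depends on the scaling.

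Upstream and downstream windows of the 640 genes did not move alike in H3K27ac, and calls by side were counted in these genes alone. The lower upstream share was not particular to them. Its median difference was -0.25 in OK107 and -0.22 in Tdc2 over the 640 genes, against -0.25 and -0.23 over all genes tested. In OK107, 43 upstream windows were higher and 46 lower, while 70 downstream windows were higher and 16 lower. In Tdc2, 108 upstream windows were higher and 76 lower, and 132 downstream windows were higher and 43 lower. With loess scaling 23 upstream windows were higher and 74 lower in OK107, and 20 and 70 in Tdc2, so the upstream majority in Tdc2 turned. The downstream windows were then 53 higher and 22 lower in OK107 and 40 and 21 in Tdc2. Within a single gene, opposite calls at the 2 ends were made in 3 genes in OK107. In Eip63F-1 the upstream window was higher and the downstream lower, and in Mhcl and orb2 the reverse. Mhcl is a myosin heavy chain-like protein and orb2 a CPEB protein that regulates translation at synapses. At Mhcl the upstream window changed by -0.84 (adjusted p = 0.043) and the downstream window by 0.805 (adjusted p = 0.0267 in edgeR). In Tdc2 opposite calls were made in 9 genes, upstream higher in CG17600, CG4622 and esn and lower in CG10741, CG1902, CG9003, Camta, Myo28B1 and Teh2. None of these opposite calls remained with loess scaling, in which Treh was the only gene with one, upstream lower and downstream higher in OK107.

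Differences in the marks went together within genes. For OK107 against R57C10, 26 of the 26 genes that differed by at least 1 in both marks did so in the same direction. For Tdc2 it was 68 of 69 genes, and with loess scaling 12 of 12 and 15 of 15. With the input offset 4 genes differed by at least 1 in both marks in OK107, none of them among the 26, and 120 in Tdc2, of which 118 did so in the same direction. Pearson's r between the marks across genes was 0.70 in OK107 and 0.64 in Tdc2, and 0.53 and 0.37 with loess scaling. With the input offset the same input difference was taken from both marks, which by itself moves them in 1 direction. The agreement of the marks with the offset is therefore not independent of the input. Both marks also had flat slopes on counts in Tdc2, 0.42 for H3K4me3 and 0.57 for H3K27ac. The 2 marks of a line share its nuclei and date tag but not its libraries.

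A difference of at least 1 in both marks, in both scalings and in 1 direction was found in 8 genes in OK107 and 6 in Tdc2. In OK107 the upstream share was lower in CG10741, CG17018, CG31875, Treh, ena, mamo and pum and higher in sn. Sn is fascin, which bundles actin, and mamo is a zinc finger transcription factor. With the input offset none of the 8 stayed at least 1 in both marks. H3K4me3 stayed so at ena (-1.56), mamo (-1.42) and pum (-1.075), and H3K27ac at CG10741 (-1.08) and Treh (-1.003).

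At pum the H3K4me3 counts were 726 upstream and 1193 downstream in R57C10 early, 1968 and 3721 in late, 866 and 5336 in OK107 and 172 and 667 in Tdc2. The upstream share was 37.8, 34.6, 13.96 and 20.5%, lowest in OK107 and next lowest in Tdc2. The H3K27ac share was 19.0, 15.5, 8.28 and 14.3% in the same order, so that OK107 lay below R57C10 and Tdc2 just below it. The H3K4me3 difference in OK107 was -1.81 ± 1.25 (SE; adjusted p = 1 in edgeR) on counts, and the H3K27ac difference was -1.21 ± 0.28 (adjusted p = 0.132). With loess scaling H3K27ac was at -1.72 (adjusted p = 0.0332 in edgeR). The level of H3K27ac at the upstream pum window changed by -0.96 in OK107 (adjusted p = 0.0157 in edgeR), while the downstream window differed by 0.26 (adjusted p = 0.545). The input at pum had 153 upstream and 445 downstream reads in R57C10 and 91 and 441 in OK107, a difference of -0.73. With the strongest start on each side of the midpoint the H3K27ac difference at pum was -0.24 (adjusted p = 0.46 in edgeR).

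In Tdc2 the upstream share was lower in both marks and scalings in CG10741, CG17018, Mhcl, Treh and shakB and higher in esn, which encodes a LIM domain protein related to prickle. With the input offset, 5 of the 6 kept at least 1 in both marks, the exception being CG17018. At esn the upstream share of H3K4me3 was 11.03 and 4.52% in R57C10, 16.8% in OK107 and 46.2% in Tdc2. Its H3K27ac share was 27.5, 36.5, 47.7 and 58.4% in the same order. Tdc2 was the highest library in both marks and OK107 the next. The H3K27ac difference was 1.59 on counts (adjusted p = 0.0603 in edgeR), 1.32 with loess scaling (adjusted p = 0.0443) and 1.40 with the input offset. In levels of H3K27ac the upstream esn window was higher by 0.80 (adjusted p = 0.025) and the downstream window changed by -0.77 (adjusted p = 0.0377 in edgeR). For H3K4me3 the difference was 3.49 ± 1.12 (SE; adjusted p = 0.0819 in edgeR).

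At shakB, an innexin, the H3K4me3 share was 71.2 and 81.6% in R57C10, 64.3% in OK107 and 54.0% in Tdc2. The H3K27ac share was 63.6, 55.0, 44.7 and 36.8%. The order was the same in both marks, with Tdc2 the lowest and OK107 next. The H3K27ac difference in Tdc2 was -1.33 in both scalings, with an adjusted p of 0.0675 on counts and 0.0443 with loess scaling in edgeR, and it was -0.67 with the strongest starts. The input ratio at shakB differed by -0.01 between Tdc2 and R57C10. The starts compared are 138905 bp apart on chromosome X, at 20798077 and 20659172. At Mhcl the H3K27ac share was 75.1 and 69.7% in R57C10, 46.0% in OK107 and 48.5% in Tdc2, with the sorted lines together below both R57C10 libraries. Its upstream window is shared with Akt1, a protein kinase of insulin signalling.

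**Figure D4:**
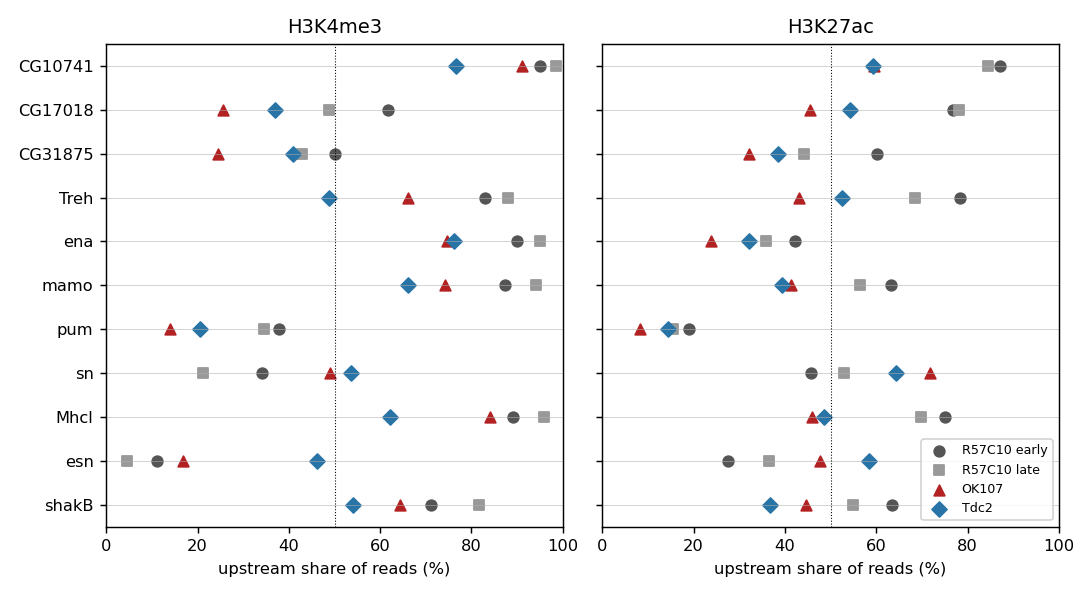
Upstream share of reads in percent (x axes) in each library for the 11 genes (y axis) that differed by at least 1 log2 unit from R57C10 in both marks and both scalings in OK107 or Tdc2, H3K4me3 left and H3K27ac right. Each point is 1 library; in esn the share rises to 46.2% and 58.4% in Tdc2, and in Treh both sorted lines lie below both R57C10 libraries.

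OK107 and Tdc2 were compared directly with 1 library each, so no test was made and intervals cover counting error only. For H3K4me3, 291 of the 640 genes differed by at least 1 log2 unit, against 37.1% of all 1365 genes, and 42 with loess scaling, against 6.08%. The R57C10 libraries differed by that much in 259 genes. For H3K27ac 18 genes did, against 3% of all genes, and 4 with loess scaling, against 0.952%, while the R57C10 libraries did so in 11. The largest H3K27ac difference was at CG33181, with 107 upstream and 807 downstream reads in OK107 and 184 and 363 in Tdc2. The log2 odds ratio was -1.93, with a 95% exact conditional interval from -2.34 to -1.54, and the loess-scaled value was -1.31. Its R57C10 libraries held 27.5 and 19.2% upstream, between 11.7% in OK107 and 33.6% in Tdc2. CG33181 shares its upstream window with otu. In the other direction cp309, a centrosomal protein of the pericentrin family, stood at 1.43, Myo28B1, a myosin, at 1.19, and Ank2, an ankyrin of axons and synapses, at 1.07.

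For H3K4me3 the largest OK107 minus Tdc2 differences were in genes with a strong tilt in OK107 and a weaker one in Tdc2. CG30463 had 2381 upstream and 166 downstream reads in OK107 and 223 and 127 in Tdc2, a log2 odds ratio of 3.03 (95% exact conditional interval 2.63 to 3.43) and of 1.28 with loess scaling. The others were dpr4, CG42700, Src64B and Cngl, at 2.77 to 2.94. Dpr4 is a cell surface protein of the immunoglobulin superfamily and Src64B a Src family kinase. In the other direction aux stood at -3.33, with 136 and 8593 reads in OK107 and 129 and 810 in Tdc2. Aux, Con, CG32473, Tm1 and lute had loess-scaled values between -0.92 and -0.17, so that none of these 5 reached 1 in that scaling. Con is connectin, an adhesion protein.

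The Kenyon cell list, 34 genes expressed or studied in mushroom body neurons, held 14 of the 640 genes. None of the 14 passed in either mark or line on counts. With loess scaling pros passed in Tdc2 for H3K27ac, and with the input offset ab passed in Tdc2 for H3K4me3 (-2.47, adjusted p = 0.0395 in edgeR) and rad for H3K27ac (1.27, adjusted p = 0.0443). The median H3K4me3 difference in OK107 was -0.24 over the 14 genes and -0.21 over all 640, and that of H3K27ac was -0.01 against -0.25. Dnc, the cAMP phosphodiesterase of olfactory learning, has outermost starts 157428 bp apart. Its upstream H3K4me3 share was 86.3 and 94.2% in R57C10, 89.8% in OK107 and 68.9% in Tdc2, and its H3K27ac share 54.1, 50.5, 53.4 and 49.7%. OK107 lay within the R57C10 range for both marks. The same held in H3K4me3 for trio, a RhoGEF of axon guidance, with 87.1, 94.6, 88.0 and 71.0%, and for rad, a gene of anaesthesia-resistant memory, with 83.9, 92.9, 90.0 and 67.1%. In chinmo, a temporal identity factor of Kenyon cells, the share was 86.5 and 94.9% in R57C10, 86.2% in OK107 and 67.8% in Tdc2.

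Mef2, a transcription factor abundant in Kenyon cells, had 71.4 and 75.5% of H3K4me3 upstream in R57C10, 70.3% in OK107 and 62.3% in Tdc2. Imp, an RNA-binding factor of temporal fate, divided the mark nearly evenly, with 50.5, 51.0, 48.0 and 40.9%. EcR, the ecdysone receptor, had 40.9, 38.1, 38.6 and 49.6%. For ab, br, Eip93F, ftz-f1, mub and rn, the OK107 log2 differences of H3K4me3 were -0.47, -0.26, -0.40, -0.26, 0.29 and 0.39. Across dnc, trio, rad, chinmo, Mef2, Imp and EcR the OK107 share stayed within 3 percentage points of the R57C10 range. In these genes Tdc2 lay nearer to 50% than R57C10 where the tilt was strong. Pros differed: its H3K4me3 share was 20.6 and 14.1% in R57C10, 7.72% in OK107 and 22.1% in Tdc2. The OK107 library was the lowest, with a difference of -1.30 ± 1.11 (SE; adjusted p = 1 in edgeR). For H3K27ac the pros share was 21.3 and 11.5% in R57C10, 10.4% in OK107 and 11.4% in Tdc2, where the R57C10 libraries lay further apart than R57C10 late from either sorted line.

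**Figure D5:**
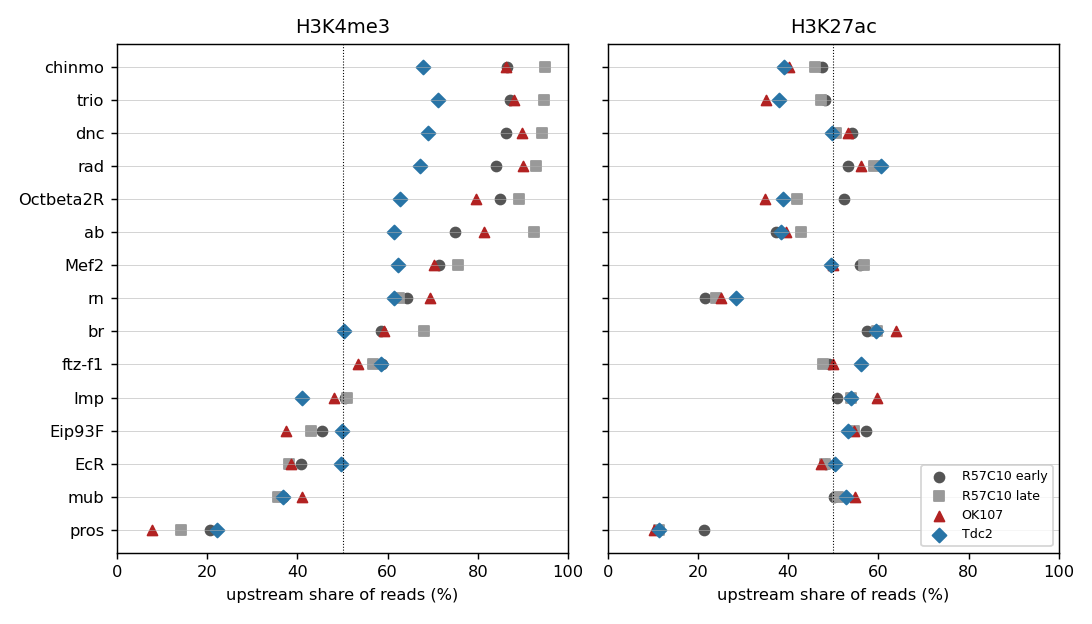
Upstream share of reads in percent (x axes) in each library, H3K4me3 left and H3K27ac right. The y axis names the 14 genes of the Kenyon cell list and Octbeta2R of the octopaminergic list. Each point is 1 library. The OK107 points lie near the R57C10 points in most genes, as in dnc at 89.8% between 86.3 and 94.2%, and the Tdc2 points lie nearer to 50% in the strongly tilted genes.

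Of the octopaminergic list of 12 genes, Octbeta2R was the only member. This octopamine receptor had 84.8 and 89.2% of H3K4me3 upstream in R57C10, 79.7% in OK107 and 62.8% in Tdc2. The difference in Tdc2 was -2.01 (adjusted p = 0.381 in edgeR) and 0.07 with loess scaling. Its H3K27ac share was 52.3, 41.9, 34.8 and 38.9%, with both sorted lines below R57C10.

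The synaptic genes were divided in their tilt. Brp, the scaffold of the active zone, kept nearly the same shares in every library, 40.9, 39.8, 37.0 and 37.9% of H3K4me3 and 32.7, 31.1, 31.1 and 30.4% of H3K27ac. Syt1, the calcium sensor of vesicle release, had 50.3 and 42.8% of H3K27ac upstream in R57C10 and 29.2 and 29.4% in OK107 and Tdc2, below both R57C10 libraries. Over the 7 presynaptic genes the median R57C10 log2 ratio of H3K4me3 was 1.14, against 1.04 over all 640 genes. It was 2.69 over 7 transmitter receptors, 1.56 over 31 kinases, phosphatases and signalling genes, 1.37 over 27 regulators of small GTPases and the cytoskeleton, 0.61 over 43 transcription factors and 0.26 over 21 RNA-binding proteins. Of these lists, transcription factors had 2 genes called higher in Tdc2 (kay and Eip78C), RNA-binding proteins 1 higher (heph), transmitter receptors 1 lower (Pdfr), and GTPase regulators 1 lower (Rapgap1). No gene of the list of 8 ion channels, which does not hold Cngl, or of 12 adhesion and wiring genes was called in either mark or line on counts.

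H3K27me3 separated the promoters of a few genes. In R57C10 the mark was at least 2-fold over input, in both libraries, at both promoters of 41 genes, at the upstream promoter alone in 9, at the downstream alone in 10 and at neither in 580. The upstream genes were CG1677, D2R, Egfr, Hr46, ec, jing, rn, tmod and trol, and the downstream genes CG11093, CG6023, CG6145, Camta, Hr38, Ir, dpp, hth, pnt and pum. H3K4me3 was marked at neither promoter in 41 of the 41 genes, in 8 of the 9, in 8 of the 10, and in 392 of the 580. These classes were formed from R57C10 levels and are a description.

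Rn, a zinc finger factor of leg and neuron patterning, had log2 ratios of H3K27me3 over input at its upstream promoter of 2.44 and 2.82 in R57C10, 2.00 in OK107 and 2.17 and 2.33 in Tdc2. Its downstream promoter stood between -0.21 and 0.54. The promoters did not overlap in any library. Hr46, an ecdysone-response nuclear receptor, had 1.53 to 2.21 upstream and -1.51 to -0.61 downstream. The share of H3K27ac at the upstream Hr46 window, the side with H3K27me3, was 20.5 and 25.9% in R57C10, 38.7% in OK107 and 49.2% in Tdc2. Camta, a calmodulin-binding transcription activator, was the reverse case, with -1.52 to -0.64 upstream and 1.39 to 2.89 downstream. Its upstream H3K4me3 share was 85.3 and 95.4% in R57C10, 91.0% in OK107 and 69.3% in Tdc2, on the side without H3K27me3.

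In pum and D2R the promoter with H3K27me3 in R57C10 had a lower value in OK107. The downstream pum window stood at 1.24 and 1.49 in R57C10, 0.30 in OK107 and -0.02 and 0.68 in Tdc2. All 3 libraries of the sorted lines lay below both R57C10 libraries. The upstream D2R window stood at 1.21 and 1.63 in R57C10, -0.48 in OK107 and 1.11 and 0.79 in Tdc2, with OK107 apart from the other 4 libraries. At D2R the level of H3K27ac in the same window was higher in OK107 by 1.53 (adjusted p = 1.51e-05 in edgeR). The input in that window also stood higher in OK107, with 541 upstream and 476 downstream reads against 230 and 417 in R57C10, and it is the denominator of the H3K27me3 values. The H3K27me3 differences were not tested, and these genes were chosen after their values were seen.

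The tilt of H3K4me3 did not rise steadily with distance. The median R57C10 log2 ratio was 0.81 in 211 genes at 5 to 10 kb, 1.37 in 193 at 10 to 20 kb, 0.79 in 170 at 20 to 50 kb and 1.40 in 66 at 50 kb or more. Among the 719 genes with outermost windows that did not overlap but starts less than 5 kb apart, the medians were 0.39, 0.60, 0.41 and 0.22 in R57C10 early, R57C10 late, OK107 and Tdc2, below those of the 640 genes in each library.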

How the data were processed

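Reads from adult fly heads were aligned with Bowtie 0.12.7 after base calling with CASAVA 1.8 and counted over features with bedtools 2.15 on the dm3 assembly, per the submitters' processing notes. The values used were deposited as unnormalized counts, 1 for each annotated isoform, in windows 500 bp to either side of its start. How reads that match several places were treated is not given in the sources used here. Of 25701 isoform entries, 25406 had a gene and position and gave 19497 distinct windows; 203 without a gene and 92 spike-in entries stayed out of library sizes and tests, holding 0.72 to 1.16% and 0 of the counts. Another 52 sample columns of the same table were not used. Libraries held 1.51 M (H3K27me3 in Tdc2) to 56.95 M reads over distinct windows.

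Shares were tested with edgeR 4.0.16 in R 4.3.3 by quasi-likelihood on 8 columns a gene, 4 libraries by 2 windows, with library as a term and 1 residual degree of freedom. Single libraries were assumed to vary as the R57C10 pair did. Genes needed at least 20 reads over both windows in every library, and 1365 genes were adjusted together by the Benjamini-Hochberg method at 0.05. Levels were tested over 19012 (H3K4me3) and 18991 (H3K27ac) windows with TMM scaling. The loess used a span of 0.3. Plain ratios added 0.5 reads and ratios to input 1 CPM. DESeq2 1.42.0, loess scaling, input offsets, other filters and other windows were alternatives. On simulated counts the tests recovered most changes of H3K27ac and hardly any of H3K4me3. The simulation gave all genes of a mark the same spread and changed OK107 alone. In the fit the spread of H3K27ac varied between genes, so the simulation does not give the power of its tests. Few calls in either mark therefore do not show that few genes differed. No label says that the R57C10 replicates are separate preparations, so the spread behind every p-value is that of these libraries and may be technical.

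The 640 genes and all gene lists were chosen with earlier results of these data known. Named genes were the called ones with the largest differences, otherwise the 5 largest differences in each direction among genes with at least 100 reads, all members of the Kenyon cell and octopaminergic lists, and up to 4 of each other list. Genes outside that rule, including those named for sides, classes, opposite levels, loess calls, both marks and H3K27me3, were chosen after their values were seen.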

Additional observations from a re-analysis of the deposited data

Results flagged for a closer look

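The genes below were flagged because their H3K4me3 upstream share differed between a sorted line and R57C10 in edgeR's quasi-likelihood test at an adjusted p of at most 0.05. Values are log2 differences. In OK107 the value was -1.85 at CG17018. In Tdc2 the upstream share was lower at CG10741 (-3.46), Cngl (-3.08), CG3961 (-2.18), Pdfr (-1.77), CG5953 (-1.76), pbl (-1.74), Rapgap1 (-1.73), CG4174 (-1.60), shakB (-1.50) and baz (-1.41). It was higher at kay (1.798), Eip78C (1.99), heph (2.00), ome (2.23) and CG7991 (2.34). Each line had 1 library beside 2 of R57C10, and none of these calls remained with loess scaling.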

How the results depend on the processing

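Directions held for all but 2 of the 414 alternatives of the 46 single-gene results, the exceptions being kay (-0.221) and Rapgap1 (0.817) with the strongest start on each side of the midpoint. The 16 called genes were still called in 13 with DESeq2, 15 without a filter, 15 at 100 or more counts, 0 with loess scaling, 11 with the input offset, 16 with the 2 compared lines only and 9 with the strongest starts. No paired analysis was possible because the columns carried no replicate numbers.

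Genes called for H3K4me3 in OK107 numbered 1; DESeq2 and loess scaling gave 0, and at least 100 counts, the 2 lines only and the strongest starts gave 2 each. In Tdc2 there were 15, and 165 with DESeq2, 3 with loess scaling and 24 with the input offset. For H3K27ac there were 0 in OK107, against 9 with DESeq2 and 31 with loess scaling, and 0 in Tdc2, against 30, 41 and, with the input offset, 121. Differences of at least 1 for H3K4me3 numbered 80 in OK107 (50 with loess, 51 with input, 62 to 250 leaving out 1 R57C10 library, the highest without the early one) and 353 in Tdc2 (70 with loess, 281 to 381 leaving out a library). For H3K27ac they numbered 67 in OK107 (19 with input, 33 without the early and 119 without the late R57C10 library) and 90 in Tdc2 (145 with input, 73 to 126 leaving out a library).

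Called windows for H3K4me3 numbered 0 in OK107 (3 by total count, 13 with loess) and 0 in Tdc2 (31 by total count, 46 with loess, 1 with DESeq2); for H3K27ac, 175 in OK107 (25 with DESeq2) and 358 in Tdc2 (150 with loess, 172 with DESeq2). Windows with a log2 fold of at least 1 in size, leaving out a library, ranged from 72 to 304 and 397 to 952 for H3K4me3 in OK107 and Tdc2, against 64 and 735, and from 41 to 122 and 144 to 171 for H3K27ac, against 67 and 143. OK107 against Tdc2 fell from 291 to 42 genes with loess for H3K4me3 and from 18 to 4 for H3K27ac, which had 29 with input. Genes with a marked promoter, at log2 thresholds of 1, 0.5, 2 and 0, numbered 191, 291, 0 and 334 (H3K4me3, R57C10), 191, 263, 9 and 321 (OK107), 79, 197, 0 and 310 (Tdc2), 156, 339, 0 and 438 (H3K27ac, R57C10), 121, 347, 0 and 465 (OK107), and 34, 227, 0 and 467 (Tdc2); the last threshold was added after the data were seen. The 117 genes with opposite sides became 47 relative to input, also added. The cause of each change was not tested. Without an R57C10 library no residual degrees of freedom remained, so those values have no test. Depth was lowest in the H3K27me3 libraries of Tdc2 (1.51 M and 1.655 M reads).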
